A study of Mus musculus with 4 samples.

Results

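Over-expression of a long noncoding RNA was compared with its control vector in mouse myeloid-derived suppressor cells (MDSCs), on 1 microarray a side. All cells were bone marrow cells of C57BL/6 mice that had been infected with a lentivirus and grown with GM-CSF and IL-6 for 4 days. The oeLNC array held RNA of cells given the lentivirus that over-expresses lncMDSC, which the study calls lnc-C/EBPβ, and the oeNC array held RNA of cells given the over-expression control lentivirus. The remaining arrays of the series, kdNC (control shRNA lentivirus) and kdLNC (shRNA lentivirus against the same RNA), were grown in the same way and are given here only as reference levels. The control vector was empty, no sort before RNA extraction and no infected share of a culture is given in the sources used here, and each group was 1 sample. With 1 array a side the difference has no replicate check, so no p-value is given and every difference below compares these arrays and not the conditions.

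The comparison covered 20065 probe sets that carry 1 gene symbol and lay above the array median on oeNC or on oeLNC, out of 34958 probe sets with 1 symbol and 45101 on the array. Each gene was read from its brightest probe set, which left 11869 genes compared, of 11894 with such a probe set and of 18194 genes represented. An intensity is the deposited linear value of a probe set, and a difference is the log2 intensity of oeLNC minus that of oeNC, so 1 log2 unit is a 2-fold difference and a negative value means that oeLNC was lower. No probe set is named for the over-expressed RNA, so its level was not analysed here, and Ly6g and Ly6c1, the genes behind the Ly6G and Ly6C surface antigens that divide MDSCs into subsets, have no probe set of their own either.

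MDSCs are immature myeloid cells that resemble neutrophils or monocytes and that restrain T cells, in part through arginase, inducible nitric oxide synthase, prostaglandin E2 and reactive oxygen. GM-CSF drives marrow progenitors to divide and to enter the myeloid lineages, and IL-6 acts through STAT3 and C/EBPβ, a transcription factor that emergency granulopoiesis depends on. The study asked how the RNA acts on the differentiation of these cells, and it places the RNA beside C/EBPβ and WDR5, a subunit of the enzymes that methylate histone H3 at lysine 4. As a check of the label, the neutrophil calprotectin subunits S100a8 and S100a9 were among the brightest genes. S100a8 read 11020 in oeNC and 10419 in oeLNC, against 10240 in kdNC and 10958 in kdLNC, and Itgam, which encodes the surface antigen CD11b, read 521 in oeNC and 403 in oeLNC, against 428 in kdNC and 341 in kdLNC. S100a8 was nearly equal on the 4 arrays, and Itgam was lowest in kdLNC.

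Genes of DNA replication and cell division, interferon-stimulated genes and cytosolic heat shock genes are described first below, and promoter sequences of some of them are shown here. The windows shown here run from 250 bases before to 50 bases after the annotated start of transcription, from RefSeq on GRCm38.p6, and they are printed because each holds letters that belong to a factor known for one of these families. Capitals mark the match. In Cdc6, at chr11:98907901-98908200 on the plus strand, they mark TTTCCCGC, a form of the E2F site, which lies on the minus strand 138 bases before the start. In Hells, at chr19:38930740-38931039 on the plus strand, the same letters lie 62 bases before the start. In Calhm6 (chr10:34127923-34128222, minus strand) and Igtp (chr11:58199306-58199605, plus strand) capitals mark GAAANNGAA, a short form of the interferon-stimulated response element. In Hspa1a (chr17:34972107-34972406, minus strand) and Hspa1b (chr17:34959189-34959488, minus strand) they mark GAANNTTC, the core of a heat shock element.
Cdc6: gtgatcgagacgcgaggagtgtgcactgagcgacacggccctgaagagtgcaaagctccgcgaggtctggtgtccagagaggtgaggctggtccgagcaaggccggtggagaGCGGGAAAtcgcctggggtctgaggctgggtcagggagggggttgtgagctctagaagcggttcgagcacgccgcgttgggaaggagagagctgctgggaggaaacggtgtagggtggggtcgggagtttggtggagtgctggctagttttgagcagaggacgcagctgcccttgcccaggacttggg
Hells: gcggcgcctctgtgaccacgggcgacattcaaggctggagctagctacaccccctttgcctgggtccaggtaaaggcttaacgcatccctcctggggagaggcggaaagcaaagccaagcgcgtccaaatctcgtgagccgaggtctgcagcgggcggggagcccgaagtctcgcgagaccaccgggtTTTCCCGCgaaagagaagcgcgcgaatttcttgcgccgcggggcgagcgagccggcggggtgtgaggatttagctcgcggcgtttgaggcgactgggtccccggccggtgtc
Calhm6: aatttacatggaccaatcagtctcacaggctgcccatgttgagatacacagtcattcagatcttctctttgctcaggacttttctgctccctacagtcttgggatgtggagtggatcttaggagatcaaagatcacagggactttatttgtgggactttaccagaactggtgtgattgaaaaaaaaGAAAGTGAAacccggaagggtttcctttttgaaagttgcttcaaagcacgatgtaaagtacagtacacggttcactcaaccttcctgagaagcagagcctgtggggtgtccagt
Igtp: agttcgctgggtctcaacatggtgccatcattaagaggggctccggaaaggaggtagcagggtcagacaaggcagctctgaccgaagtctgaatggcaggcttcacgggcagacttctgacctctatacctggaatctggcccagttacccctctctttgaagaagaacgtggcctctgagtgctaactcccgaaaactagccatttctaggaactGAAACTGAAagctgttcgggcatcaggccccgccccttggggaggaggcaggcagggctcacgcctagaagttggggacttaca
Hspa1a: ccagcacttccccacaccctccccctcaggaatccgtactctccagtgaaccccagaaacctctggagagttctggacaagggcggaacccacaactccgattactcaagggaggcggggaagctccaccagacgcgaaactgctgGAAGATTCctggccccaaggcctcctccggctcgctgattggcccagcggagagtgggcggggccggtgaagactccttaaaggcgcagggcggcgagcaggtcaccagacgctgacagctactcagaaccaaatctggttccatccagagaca
Hspa1b: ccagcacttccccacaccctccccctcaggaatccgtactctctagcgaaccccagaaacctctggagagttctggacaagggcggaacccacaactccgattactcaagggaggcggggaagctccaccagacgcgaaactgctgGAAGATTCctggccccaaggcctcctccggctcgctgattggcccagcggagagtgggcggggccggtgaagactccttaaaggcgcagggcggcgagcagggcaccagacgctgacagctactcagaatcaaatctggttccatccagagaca

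Both strands of every window were searched, and a match is a description of the letters, not a bound site. The replication list also holds E2F targets by its definition. Of its windows, 27.7% held one of the E2F forms searched (TTTCCCGC or TTTGGCGC), against 2.87% of the 12267 windows of all genes compared. The share was 9.68% for the cell cycle list. GAAANNGAA lay in 56.2% of interferon-stimulated windows and in 7.14% of all. GAANNTTC lay in 37.5% of heat shock windows and in 5.56% of all. The lists hold known targets of these factors, so the shares describe the lists and not the difference between oeLNC and oeNC. Of the windows of genes at least 2-fold lower, 9.78% held an E2F form and 2.17% held GAANNTTC. Of the windows of genes at least 2-fold higher, 23.1% held GAAANNGAA. The Hspa1a and Hspa1b windows differ at 4 of 300 bases, and their transcripts are near-copies too, so probe sets of these genes may read both. The windows of Cenph, Lrr1, Mybl2, Uhrf1, Ifit2 and Ifi47, genes described below, do not hold the letters searched for their families.

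Most genes were at nearly the same level on both arrays. Of 11869 genes, 10763 (90.7%) differed by less than 1.5-fold, the median difference was -0.014 and the middle 90% of genes lay between -0.60 and 0.55 log2 units. At least 2-fold higher in oeLNC were 35 genes (0.295%), and at least 2-fold lower were 96 genes (0.809%). With each array centred on its median the counts at 2-fold were 20 higher and 131 lower. At 1.5-fold the counts were 467 higher (3.93%) and 639 lower (5.38%). At 3-fold they were 2 higher (0.0169%) and 5 lower (0.0421%). Over these genes the SD of the differences was 0.35 log2 units, smaller than the 0.53 log2 units between the control arrays oeNC and kdNC and larger than the 0.27 log2 units between kdLNC and kdNC. The control arrays differed from each other by at least 2-fold at 791 genes, 6.66% of those compared.

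**Figure D1:**
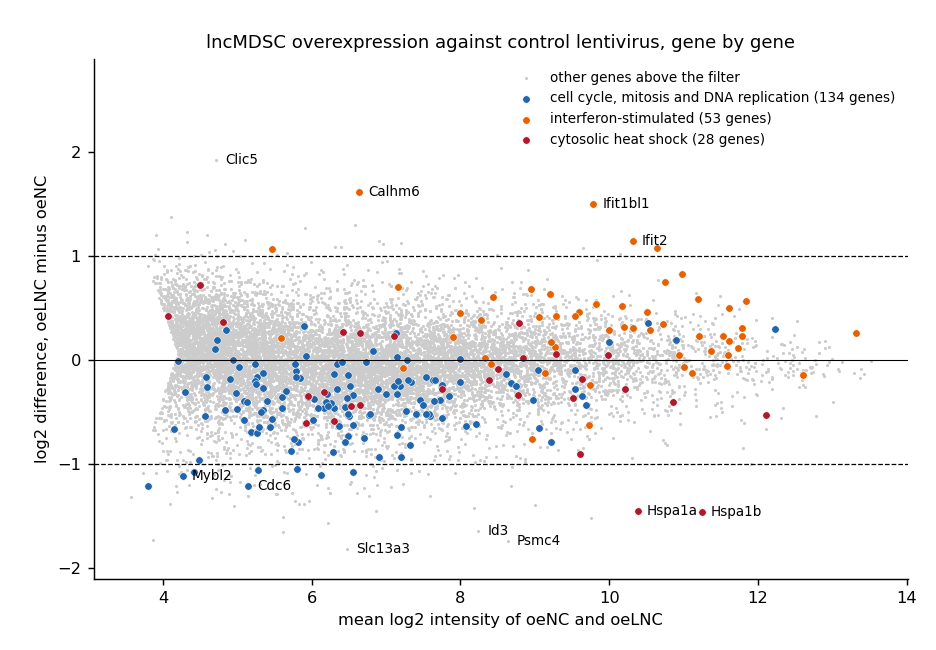
Difference between oeLNC and oeNC (vertical axis, log2 intensity) against the mean of their levels (horizontal axis, log2 intensity) for 11869 genes, 1 point a gene, with dashed lines at 2-fold. The 134 cell cycle and replication genes (blue) lie mostly below 0, the 53 interferon-stimulated genes (orange) mostly above 0, and the red points far below the lower line at high level are the heat shock genes Hspa1a and Hspa1b.

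The array oeNC was often the one that stood apart. Among the 96 genes at least 2-fold lower in oeLNC, oeNC held the highest of the 4 values in 88 and oeLNC the lowest in 49. Among the 35 genes that were higher, oeNC held the lowest value in 32 and oeLNC the highest in 21. Choosing genes by a large difference between these 2 arrays builds part of this in, so it is given as a description. Against the mean of both control arrays, oeNC and kdNC, the direction turned for 20 of 61 list medians and for 33 of the 163 named genes past 1.5-fold, and the genes described below for which it turned are given with that value. Over all genes compared, oeLNC was the lowest of 4 in 25.5% and oeNC the highest in 29.0%. Only 4 genes were at least 2-fold below every other array in oeLNC, and these were Cdc6, Cenph, Lrr1 and Dscc1. No gene was at least 2-fold above every other array. At 1.5-fold, 82 genes (0.691%) lay above every other array in oeLNC and 114 (0.96%) below, and 21 of the latter are in the cell cycle or replication lists. Control RNAs measured on the array gave lower values in oeLNC as well, with mean differences of -0.66 (lys), -0.43 (dap), -0.39 (thr) and -0.26 (phe), and smaller ones for BioB (-0.18), BioC (-0.063), BioD (-0.096) and Cre (-0.19). These means leave out a further series of probe sets for the same RNAs. In that series lys differed by -1.03 to -0.67, dap by -0.94 to -0.33, phe by -1.46 to -0.34 and thr by -0.49 to -0.13. BioB, BioC, BioD and Cre lay between -0.36 and 0.23 there. Their part in the results was not tested. Signal from the 3′ end of actin over that from its 5′ end, a sign of RNA integrity, was 1.96 in oeNC and 1.97 in oeLNC on the log2 scale. The 100 probe sets just inside the filter on level had a median difference of 0.12 and the 100 just outside one of 0.058.

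Of the lower genes, 43 had a further probe set and in 33 of them the further probe sets were lower as well. Of the higher genes, 6 had one and 5 pointed the same way. Over all genes compared this was so in 47.7% of those with a further probe set. Every probe set above the filter on level showed at least 2-fold higher values for Clic5 and Egln3, and at least 2-fold lower values for Slc13a3, Hspa1b, Rdh11, Cpeb2, Ceacam10, Terf1, Car4 and Mpzl2. Sets of Clic5, Ceacam10, Cpeb2, Slc13a3, Terf1 and Mpzl2 below the filter differed by less or the other way. Of the genes past 2-fold, 8 of the higher and 17 of the lower had an intensity under 32 on both arrays. Car4 and Mpzl2 were as dim as this. Of the genes named below, so were Zfand1, Dscc1, Cenph, Mybl2, Mcm8, H1f4 and Mrc1 on the lower side and Cpe, C6, Ccr2, Hspb8 and Ltc4s on the higher side.

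Genes that carry out DNA replication and cell division were mostly lower in oeLNC than in oeNC at their brightest probe set, by a small amount. The lists of cell cycle and mitosis genes and of replication genes held 134 genes together, and 119 of these (88.8%) were lower in oeLNC, against 51.9% of all genes compared. The median difference was -0.38 against -0.014 for all genes. At least 1.5-fold lower were 32 genes (23.9%, against 5.38% of all), and 0 were at least 1.5-fold higher. In 108 of them (80.6%, against 25.5% of all) oeLNC held the lowest of the 4 values. The median level of these genes, each relative to its own mean over the 4 arrays, was 0.29 for kdNC, 0.16 for kdLNC, -0.025 for oeNC and -0.42 for oeLNC. The step from oeNC to oeLNC was larger than the other steps in this order, but kdLNC lies between the control arrays and splits their gap. The control arrays differed in the same direction. The median of oeNC minus kdNC was -0.30 for the cell cycle list and -0.25 for the replication list. Beside these, oeLNC minus oeNC was -0.42 and -0.30. In RNA of whole cultures, fewer dividing cells and less of these RNAs per cell cannot be told apart. Of the genes with a further probe set (69), all further probe sets were lower in 52. All were higher in 15, against the direction of the lists. Over all genes with one, the further probe sets all pointed the way of the brightest in 47.7%, a related count but not the same.

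**Figure D2:**
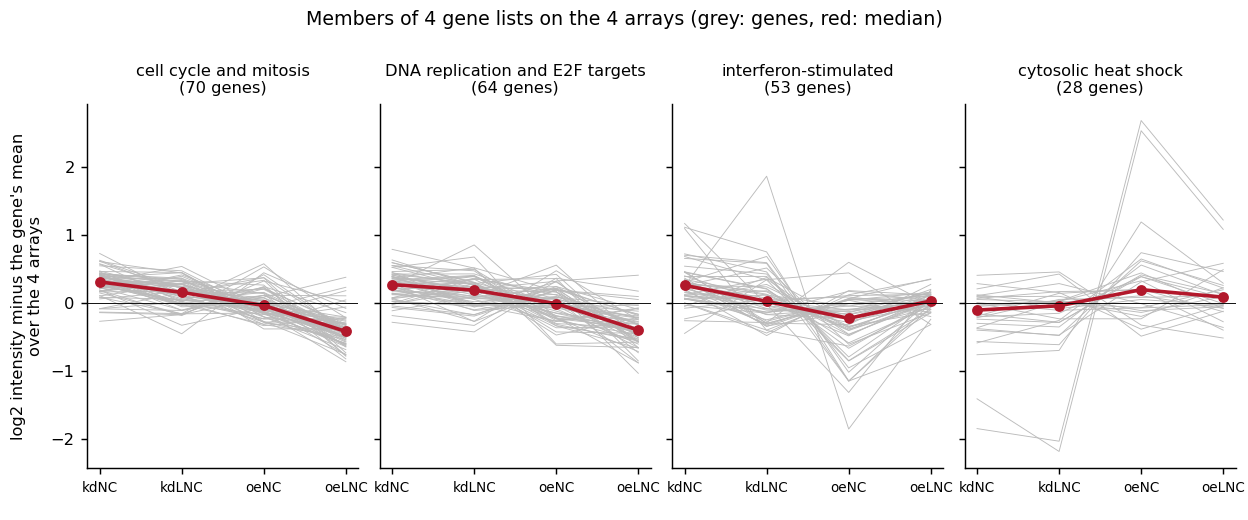
Level of each gene relative to its own mean over the 4 arrays (vertical axis, log2; grey lines, 1 a gene) on kdNC, kdLNC, oeNC and oeLNC (horizontal axis) for 4 gene lists, with the list median in red. The medians of the cell cycle and replication lists are lowest in oeLNC, at -0.42 and -0.41, while interferon-stimulated genes are lowest in oeNC at -0.23.

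Genes whose products prepare and open replication origins were mostly lower. The families within lists used here and below were set after their values were seen. Cdc6, which loads the replicative helicase onto origins, read 53.6 in oeNC and 23.2 in oeLNC (-1.21), with 61.4 in kdNC and 68.1 in kdLNC, the value in parentheses being, here and below, the log2 difference. Its level in oeLNC was more than 2-fold below that on each of the other 3 arrays, which lay close to each other. All 6 subunits of the MCM helicase, Mcm2 to Mcm7, were lower, with a median of -0.41 and a range from -0.65 to -0.19, and each was at its lowest in oeLNC. Mcm5 read 666 in oeNC and 424 in oeLNC (-0.65), beside 648 in kdNC and 792 in kdLNC. Mcm2 read 337 in oeNC and 217 in oeLNC (-0.64), against 332 in kdNC and 344 in kdLNC. All 7 origin licensing genes, Cdc6 among them, were lower in oeLNC, with a median of -0.41. Cdc45, a part of the active helicase, differed by -0.79, and 4 of 5 genes of Cdc45 and its GINS partners were lower, Gins3 being higher by 0.19. Relative to its own mean over the 4 arrays, Gins3 stood at 0.39 in kdNC, -0.27 in oeNC and -0.078 in oeLNC. Against the mean of both controls Gins3 was therefore on the lower side.

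At the fork, all 8 polymerase and primase genes were lower and each was lowest in oeLNC, with a median of -0.36. Dscc1, part of the loader that places the sliding clamp for cohesion, read 21.2 in oeNC and 9.15 in oeLNC (-1.21), with 18.6 in kdNC and 20.98 in kdLNC. Rfc4, a subunit of the main clamp loader, differed by -0.89. The clamp itself went the other way, since Pcna read 1787 in oeNC and 2042 in oeLNC, a difference of 0.19. Rfc1, the large subunit of the clamp loader, was higher as well (0.26), and both were lower against the mean of both controls (-0.11 and -0.19). Of the 3 RPA genes, whose products coat single-stranded DNA, all were lower. Nucleotide supply was represented by 4 genes that passed the filter on level, all lowest in oeLNC, and Dut, which keeps uracil out of DNA, read 203.5 in oeNC and 107 in oeLNC (-0.93), beside 221 in kdNC and 209.2 in kdLNC. Mcm8, a helicase of homologous recombination, read 31.03 in oeNC and 14.7 in oeLNC (-1.07), against 19.5 in kdNC and 22.6 in kdLNC. Hells, a chromatin remodeller needed for DNA methylation, read 136 in oeNC and 64.5 in oeLNC (-1.08), with 100.02 in kdNC and 124 in kdLNC at its brightest probe set while its further probe set differed by 0.35, so its probe sets disagree. Uhrf1, which brings the maintenance methyltransferase to newly made DNA, read 165 in oeNC and 86.4 in oeLNC (-0.93), beside 214 in kdNC and 214 in kdLNC.

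Mitosis genes were lower to a like degree. Of 15 kinetochore and spindle checkpoint genes, 14 were lower in oeLNC and 14 held their lowest value there, with a median of -0.46. Cenph, an inner kinetochore subunit that stands in none of these lists, read 27.3 in oeNC and 11.8 in oeLNC (-1.21), against 33.2 in kdNC and 29.03 in kdLNC. Spc25, of the NDC80 complex that holds microtubules, read 213 in oeNC and 121 in oeLNC (-0.81), with 182 in kdNC and 140.3 in kdLNC. All 9 genes of the chromosomal passenger complex and cytokinesis were lower, with a median of -0.54. Among these, Birc5 (survivin) read 116 in oeNC and 69.6 in oeLNC (-0.73), beside 185 in kdNC and 176 in kdLNC. Ect2, the exchange factor that sets the cleavage furrow, read 80.4 in oeNC and 39.003 in oeLNC (-1.04), against 77.8 in kdNC and 83.8 in kdLNC. The 5 condensin genes, whose products compact mitotic chromosomes, were all lowest in oeLNC with a median of -0.57, and Smc4 among them differed by -0.79. Of 9 mitotic kinesins, 8 were lower. Kif2c, which depolymerises microtubules at kinetochores, read 103 in oeNC and 47.7 in oeLNC (-1.10), with 85.2 in kdNC and 96.7 in kdLNC, but its further probe sets differed by only -0.29 to -0.049.

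Regulators of the cycle were mixed. Of 11 cyclin, CDK, CDC25 and CKS genes 10 were lower, Cks2 being higher. Ccne2, a cyclin of the entry into S phase, was at 55.7 in oeNC and 26.7 in oeLNC (-1.06), beside 35.2 in kdNC and 37.7 in kdLNC. The other E-type cyclin, Ccne1, did not share this and differed by -0.014. The D-type cyclin Ccnd2, which stands outside this family and these lists, was higher in oeLNC (0.68). Mybl2, a transcription factor of the complex that switches on mitotic genes, read 28.2 in oeNC and 13.1 in oeLNC (-1.11), against 27.8 in kdNC and 25.003 in kdLNC. Lin54, the DNA-binding subunit of that complex, read 193 in oeNC and 70.6 in oeLNC (-1.45), with 69.7 in kdNC and 87.0 in kdLNC. There oeNC was the array apart, and a further probe set of Lin54 differed by only -0.12, so its probe sets disagree in size. Foxm1, a factor for the same mitotic genes, was higher in oeLNC by 0.33, and of 5 E2F genes 3 were lower and 2 higher, all within 1.5-fold. The widely used markers of division differed by -0.22 at Mki67, -0.38 at Top2a and -0.45 at Cdk1. The highest differences in these lists were 0.36 for Cks2, 0.33 for Foxm1 and 0.30 for Pttg1, which encodes securin. Lrr1, a substrate receptor of the ubiquitin ligase that unloads the replicative helicase, stands in neither list and read 80.5 in oeNC and 38.6 in oeLNC (-1.06), beside 105 in kdNC and 90.4 in kdLNC.

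Markers of other dividing cells that marrow cultures can hold had list medians near 0. The haematopoietic progenitor list had 13 genes above the filter and a median difference of -0.08, the erythroid list 7 genes and 0.058, and the B lineage list 14 genes and 0.053. Their summed intensities were 2110.2, 699 and 6659 in oeNC and 2096, 793 and 7559.5 in oeLNC. The medians against the mean of both controls were -0.16, -0.076 and -0.51 in this order. B lineage genes did not share 1 direction, with the early B cell factor Ebf1 at -0.66, the surrogate light chain gene Vpreb1 at -0.62 and the recombinase gene Rag1 at -0.30, while Pax5, which fixes B cell identity, stood at 0.81 and Ighm at 0.43. Their part in the result was not tested. Genes of ribosome biogenesis and ribosomal proteins differed by less than 1.5-fold with 1 exception. Of 39 ribosome biogenesis genes, 31 were lower (79.5%, against 51.9% of all genes) and 27 were lowest of 4 in oeLNC (69.2%, against 25.5%). Their median was -0.16, or -0.39 against the mean of both controls, and Nop16 was the only one past 1.5-fold (-0.63). The 44 ribosomal protein genes had a median of -0.096 with none past 1.5-fold. The 30 translation initiation and elongation genes had a median of -0.092, with 1 past 1.5-fold on each side.

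Interferon-stimulated genes were higher in oeLNC than in oeNC. Of 53 measured genes above the filter, 43 were higher (81.1%, against 47.8% of all genes) and the median difference was 0.30. At least 1.5-fold higher were 12 genes (22.6%, against 3.93% of all) and at least 1.5-fold lower 2. The array that stood apart was oeNC, which held the lowest of the 4 values in 34 genes (27.1% of all genes were lowest there), whereas oeLNC lay between the control arrays oeNC and kdNC in 37 (as in 43.2% of all genes) and was the highest of 4 in 8. The list median of oeNC minus kdNC was -0.47 and that of oeLNC minus kdNC -0.22, so oeLNC was above its own control and below the knockdown control. Against the mean of both controls the median was 0.064.

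The IFIT genes, whose products bind foreign RNA ends, were all 4 higher, with a median of 0.87. Ifit1bl1 read 525 in oeNC and 1489.7 in oeLNC (1.51, or 2.84-fold higher), against 2941 in kdNC and 1289.5 in kdLNC. Ifit2 read 857 in oeNC and 1892 in oeLNC (1.14), with 3136 in kdNC and 2609.6 in kdLNC. In both, oeLNC stayed below the level on kdNC. All 8 interferon-inducible GTPases, which attack the vacuoles of intracellular pathogens, were higher, with a median of 0.49, and oeNC was the lowest of 4 in all 8. Ifi47 read 1098 in oeNC and 2321 in oeLNC (1.08), beside 3833 in kdNC and 3643 in kdLNC. Igtp read 1514 in oeNC and 2694 in oeLNC (0.83), against 3437 in kdNC and 3443 in kdLNC. The related Gm4951 read 38.8 in oeNC and 93.6 in oeLNC (1.27), with 248 in kdNC and 199.96 in kdLNC, and it stood at -0.067 against the mean of both controls. Of 5 Schlafen genes 4 were higher, with 0.75 for Slfn2 and 0.71 for Slfn5 (-0.061 against both controls), and the family median turned in the same way, from 0.69 to -0.037. The 3 ligands of CXCR3, which call in activated T cells, were higher, and Cxcl9 read 30.4 in oeNC and 63.8 in oeLNC (1.07), beside 76.3 in kdNC and 99.1 in kdLNC.

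Further genes tied to interferon gamma were chosen after their values were seen. Calhm6, a channel gene of activated macrophages and a member of the interferon list, read 56.8 in oeNC and 174 in oeLNC (1.61, or 3.06-fold higher), against 245 in kdNC and 748 in kdLNC, with its highest level in kdLNC. Il18bp, a secreted trap for IL-18, read 253 in oeNC and 511 in oeLNC (1.01), with 571 in kdNC and 579.5 in kdLNC. AW112010 read 652 in oeNC and 1272 in oeLNC (0.96), beside 2057 in kdNC and 1925 in kdLNC. Neither stands in a list. The 3 immunoproteasome genes were all higher with a median of 0.47, or 0.14 with all probe sets of a gene averaged. Psmb8 differed by 0.47 at its brightest probe set and by -0.69 at a further one, so its probe sets disagree. Lower in oeLNC were Ciita, the switch of MHC class II genes (-0.37), the class II gene H2-Ab1 (-0.39), Ifi204, a sensor of DNA, at 649 in oeNC and 384 in oeLNC (-0.76), against 350.1 in kdNC and 605 in kdLNC, Irf9, a subunit of the factor that interferon activates, at -0.63, and both MX genes, with a median of -0.10. Socs1, the feedback inhibitor of interferon and cytokine receptors, read 99.1 in oeNC and 217 in oeLNC (1.13), with 196 in kdNC and 153 in kdLNC and was the highest of 4 in oeLNC. The T and NK lineage list, cells that make interferon gamma, had 13 of 14 genes higher (92.9%, against 47.8% of all) with a median of 0.22 and a summed intensity of 5995 in oeNC and 7696 in oeLNC. Its part in the result was not tested, and against the mean of both controls its median was -0.053.

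**Figure D3:**
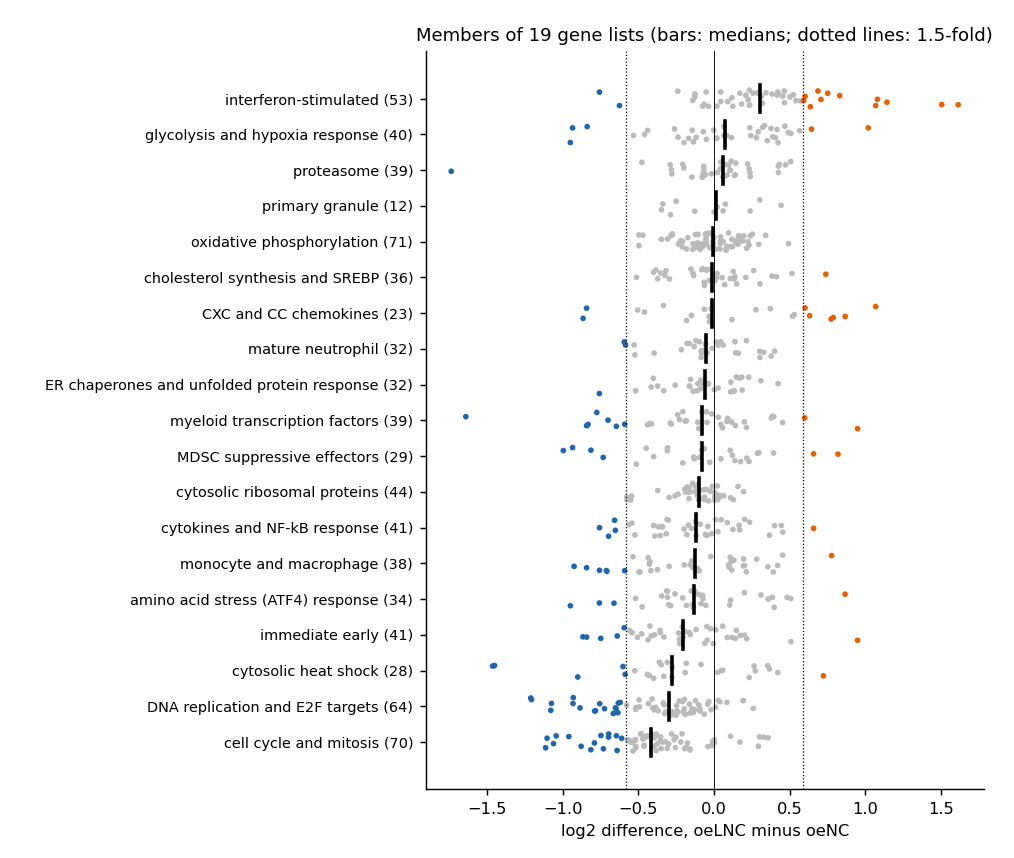
Difference between oeLNC and oeNC (log2 intensity, horizontal axis) for each gene of the 19 main lists (vertical axis), 1 point a gene, with bars at the list medians and dotted lines at 1.5-fold. The cell cycle list has its median at -0.42 and the replication list at -0.30 with no gene past 1.5-fold on the higher side, and the interferon-stimulated list sits on the higher side at 0.30.

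The inducible heat shock genes Hspa1a, Hspa1b and Hsph1 were lower in oeLNC than in oeNC and stayed above both knockdown arrays. Heat shock proteins fold new or damaged proteins in the cytosol. Of 28 cytosolic heat shock genes above the filter, 18 were lower (64.3%, against 51.9% of all genes) with a median of -0.28. At least 1.5-fold lower were 5 (17.9%, against 5.38% of all) and at least 1.5-fold higher 1 (3.57%, against 3.93% of all). Hspa1b, an inducible HSP70 whose window is shown above, read 4025 in oeNC and 1459 in oeLNC (-1.46), beside 174 in kdNC and 153 in kdLNC. Its neighbour Hspa1a read 2206 in oeNC and 807 in oeLNC (-1.45), against 143 in kdNC and 83.8 in kdLNC. The over-expression arrays were many times above the knockdown arrays at these genes, with oeNC minus kdNC at 4.53 for Hspa1b and 3.94 for Hspa1a. Against the mean of both controls the direction turned, to 0.80 and 0.52. Hsph1, the HSP110 exchange factor that works with HSP70, read 1065 in oeNC and 570.3 in oeLNC (-0.90), with 275 in kdNC and 287 in kdLNC, its further probe set differed by -1.86, and against both controls it stood at 0.076. The list median turned to 0.019 there.

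Of the other heat shock genes, the HSP90 co-chaperones Fkbp4 and Stip1 read 74.98 in oeNC and 49.4 in oeLNC (-0.60) and 96.5 in oeNC and 64.2 in oeLNC (-0.59), and Hsp90aa1 itself differed by -0.40. The small heat shock protein gene Hspb8 went the other way, at 17.5 in oeNC and 28.9 in oeLNC (0.72), beside 20.6 in kdNC and 17.5 in kdLNC. It was 1 of 10 higher genes among the 28, with Hspb1 and Dnajb1. Relative to its own mean over the 4 arrays, Hspb1 stood at 0.31 in oeNC, 0.58 in oeLNC and -0.41 in kdNC. Dnajb1 stood at -0.39 in oeNC, -0.036 in oeLNC and 0.28 in kdNC. The 6 DNAJ genes, whose products hand clients to HSP70, had a median of 0.053 with 4 of 6 higher, and the sign of this median turned with each array centred on its median. Chaperones of the mitochondrion had a median of -0.25 over 15 genes, with Hspd1, the mitochondrial HSP60, at 504 in oeNC and 311 in oeLNC (-0.70), against 475 in kdNC and 486 in kdLNC. The cytosolic chaperonin list had a median of -0.17 and the ER chaperone and unfolded protein response list one of -0.061. Of the 39 proteasome genes (median 0.061), Psmc4 stood apart at 725 in oeNC and 218 in oeLNC (-1.74), with 241 in kdNC and 447 in kdLNC, with a further probe set at -0.13. Its probe sets disagree in size.

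Immediate early genes, which cells switch on within minutes of a stimulus, were mostly lower in oeLNC. Of 41, 30 were lower (73.2%, against 51.9% of all genes) with a median of -0.20, and oeLNC lay between the control arrays in 31 of them (43.2% of all genes did). Against the mean of both controls the list median was -0.025. The AP-1 subunits were all 6 lower, with a median of -0.38 that turned to 0.11 against both controls. Junb read 1038 in oeNC and 569 in oeLNC (-0.87), beside 439.7 in kdNC and 410.1 in kdLNC. Jun read 1373 in oeNC and 817 in oeLNC (-0.75), against 517 in kdNC and 403 in kdLNC, although a further probe set of Jun was higher in oeLNC. The orphan nuclear receptor Nr4a1 read 1069.7 in oeNC and 597 in oeLNC (-0.84), with 439.9 in kdNC and 477 in kdLNC. In these 3 genes oeNC was the highest array and oeLNC the next. All 5 dual-specificity phosphatases, which end MAP kinase signals, were lower, with a median of -0.56. Egr1, induced by the same kinases, differed in direction at 92.8 in oeNC and 179 in oeLNC (0.95), beside 858 in kdNC and 861 in kdLNC, and both knockdown arrays were far above the over-expression arrays there, so that it stood at -0.66 against both controls.

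Genes of the NF-kB pathway itself were mostly lower as well. Of 9 genes for NF-kB subunits and inhibitors 8 were lower, and Rel, the c-Rel subunit, read 757 in oeNC and 467 in oeLNC (-0.70), against 227 in kdNC and 189.7 in kdLNC. Traf1, an adaptor of TNF receptors that NF-kB induces, read 1103 in oeNC and 653 in oeLNC (-0.76), with 305 in kdNC and 290.1 in kdLNC. Against both controls Rel was at 0.17 and Traf1 at 0.17. The cytokine genes did not share 1 direction, with -0.66 for Csf3 (G-CSF), -0.40 for Il1b, -0.18 for Il6 and 0.37 for Tnf. Against both controls Il1b stood at 0.10, Il6 at 0.11 and Tnf at -0.54, each on the other side of 0. Over the 41 cytokine and NF-kB genes the median was -0.12, and 0.00054 against both controls.

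Chemokines differed in direction by the receptor they act on. The 4 measured ligands of CXCR2, the receptor that draws neutrophils, were all lower, with a median of -0.65. Cxcl1 read 858 in oeNC and 471 in oeLNC (-0.87), beside 333 in kdNC and 809 in kdLNC. Cxcl3 read 4792 in oeNC and 2672 in oeLNC (-0.84), against 1627 in kdNC and 4374 in kdLNC. All 4 ligands of CCR2, which draws monocytes, were higher, with a median of 0.71, and all 4 were lowest in oeNC. With both controls averaged this median turned to -0.18, while that of the CXCR2 ligands was -0.19. Ccl7 read 356 in oeNC and 649 in oeLNC (0.87), with 2035 in kdNC and 2506 in kdLNC. Ccl8 read 159.9 in oeNC and 276 in oeLNC (0.79), beside 389 in kdNC and 661 in kdLNC. The macrophage inflammatory protein Ccl4 was higher as well, at 1230 in oeNC and 2104 in oeLNC (0.77), against 4218 in kdNC and 3935 in kdLNC. Both Ccl7 (-0.39) and Ccl4 (-0.11) were on the lower side against both controls. Over all 23 chemokines above the filter the median was -0.015, with 6 at least 1.5-fold higher (26.1%, against 3.93% of all genes) and 2 lower. Ccr2, the receptor of the CCR2 ligands and a marker of classical monocytes, read 18.3 in oeNC and 31.3 in oeLNC (0.78), with 27.5 in kdNC and 23.2 in kdLNC. S1pr2, a sphingosine phosphate receptor, read 80.8 in oeNC and 179 in oeLNC (1.15), beside 128 in kdNC and 133 in kdLNC.

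**Figure D4:**
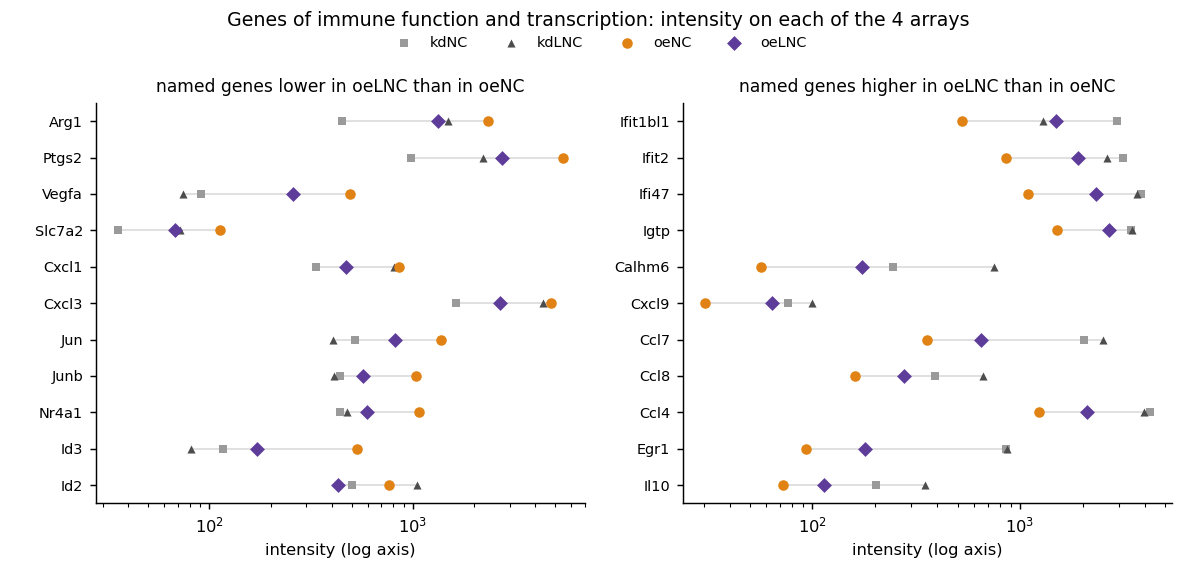
Intensity (horizontal log axis) of suppressive, chemokine, immediate early and Id genes that were lower in oeLNC (left) and of interferon, chemokine and related genes that were higher (right), 1 row a gene, on kdNC (grey square), kdLNC (dark triangle), oeNC (orange circle) and oeLNC (purple diamond). In most rows oeLNC lies between oeNC and kdNC, as for Arg1 (2337 in oeNC and 1329.5 in oeLNC) and Ccl7 (356 in oeNC and 649 in oeLNC).

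Several genes of the suppressive programme of MDSCs were lower in oeLNC than in oeNC. Ptgs2, the inducible cyclooxygenase that starts prostaglandin E2 synthesis, read 5444 in oeNC and 2729 in oeLNC (-0.996), against 983 in kdNC and 2204 in kdLNC, and its further probe set differed by -1.31. Arg1, the arginase that depletes arginine, read 2337 in oeNC and 1329.5 in oeLNC (-0.81), with 446 in kdNC and 1479 in kdLNC. The arginine transporter Slc7a2 read 113 in oeNC and 67.99 in oeLNC (-0.73), beside 35.6 in kdNC and 71.5 in kdLNC. In all 3 oeNC was the highest array and kdNC the lowest, and against the mean of both controls they stood higher, at 0.24, 0.38 and 0.10. The growth factor Vegfa read 492 in oeNC and 257 in oeLNC (-0.93), against 91.5 in kdNC and 74.1 in kdLNC, with a further probe set at 0.018. Against both controls Vegfa was at 0.28, and with shared probe sets left out it was at 0.018. Shared means, here and below, that the ID ends in _a_at, _s_at or _x_at, and some of these read only their own gene. Nos2, which makes nitric oxide from arginine, differed by 0.11, and Cybb, the catalytic subunit of the NADPH oxidase, by 0.29. Ptger2, a prostaglandin E2 receptor, was higher in oeLNC, at 163.5 in oeNC and 288 in oeLNC (0.82), with 327 in kdNC and 349 in kdLNC. Il10, an anti-inflammatory cytokine, read 71.8 in oeNC and 113 in oeLNC (0.66), beside 202 in kdNC and 349 in kdLNC and stood at -0.088 against both controls. Over the 29 effector genes the median was -0.081, with 2 at least 1.5-fold higher and 4 lower (13.8%, against 5.38% of all genes), and it was 0.10 against the mean of both controls.

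Markers of the myeloid lineages came next. Of 32 mature neutrophil genes 19 were lower (59.4%, against 51.9% of all genes), with a median of -0.056. At least 1.5-fold higher were 0, and 2 were lower (6.25%, against 5.38% of all). Ltf (lactoferrin), of the secondary granules, read 1385 in oeNC and 960.0 in oeLNC (-0.53), against 828 in kdNC and 127 in kdLNC, and its low level on kdLNC set that array apart. The primary granule genes, which promyelocytes make, had a median of 0.01 over 12 genes with none past 1.5-fold. Of 38 monocyte and macrophage genes, 6 were at least 1.5-fold lower (15.8%, against 5.38% of all genes) and 1 higher, with a median of -0.12 and of 0.015 against both controls. The scavenger receptor Marco read 147 in oeNC and 77.2 in oeLNC (-0.93), with 44.3 in kdNC and 64.5 in kdLNC. The mannose receptor Mrc1 read 30.7 in oeNC and 18.8 in oeLNC (-0.71), beside 8.83 in kdNC and 17.5 in kdLNC, and it was at 0.19 against both controls. All 3 genes of complement C1q, made by resident macrophages, were lower, and C1qb differed by -0.71. Adgre1, which encodes the macrophage antigen F4/80 that the study followed, differed by -0.14, within 1.5-fold. The 27 dendritic cell and antigen presentation genes had none past 1.5-fold.

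Among transcription factors of the myeloid lineage the largest difference was that of Id3, an Id gene, whose products hold E proteins off DNA. Id3 read 533 in oeNC and 171 in oeLNC (-1.64), against 117 in kdNC and 81.4 in kdLNC. Id2 read 763 in oeNC and 428 in oeLNC (-0.83), with 501 in kdNC and 1053 in kdLNC, whereas Id1 differed by 0.60, and by -0.24 from the mean of both controls. In oeNC Id3 was several times above the other arrays, and in oeLNC it was closer to them. Gfi1, the repressor that granulocytes need, differed by -0.77. Irf8, the factor of monocyte and dendritic cell fate that opposes granulopoiesis, read 566 in oeNC and 376 in oeLNC (-0.59), beside 443 in kdNC and 444 in kdLNC at its brightest probe set and differed by -0.032 at a further one. Of 39 factors above the filter, 2 were at least 1.5-fold higher and 7 lower (17.9%, against 5.38% of all genes), and the median was -0.081.

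The C/EBP genes and Wdr5, which the study ties to the RNA, differed by less than 1.5-fold. Cebpb read 4971 in oeNC and 4382 in oeLNC (-0.18), against 4027 in kdNC and 4045 in kdLNC, while Cebpa, Cebpd, Cebpg and Ddit3 were higher at 0.22, 0.38, 0.45 and 0.39. Wdr5 read 151 in oeNC and 155.04 in oeLNC (0.037), with 217 in kdNC and 186 in kdLNC. With both controls averaged Cebpa (-0.10), Cebpd (-0.28) and Wdr5 (-0.23) were on the lower side. The 24 genes of the H3K4 methyltransferase and demethylase list had a median of -0.01, with 0.71 for Kdm5c and 0.64 for Kmt2d at the high end, where Kmt2d was at -0.053 against both controls. A further probe set of Kdm5c differed by -0.82, while its others above the filter lay between 0.025 and 0.40. Il4i1, an amino acid oxidase that the study follows as a target, read 7.43 in oeNC and 8.85 in oeLNC, against 8.85 in kdNC and 5.87 in kdLNC and lay below the filter on level, so no difference is drawn for it. Stat3, the factor downstream of IL-6, differed by -0.29, and by 0.19 from the mean of both controls. Its feedback inhibitor Socs3 read 4430 in oeNC and 2913 in oeLNC (-0.60), beside 1479.7 in kdNC and 2489.6 in kdLNC, opposite in direction to Socs1, and stood at 0.19 against both controls. Of the 16 genes named in the study's text that passed the filter, 4 were at least 1.5-fold lower (25%, against 5.38% of all genes). These were Ptgs2, Arg1, Stat5b and Irf8, and 0 were higher (3.93% of all). The study chose part of these genes on the same samples, so their count is not independent evidence. Stat5b, which carries GM-CSF signals, read 208.9 in oeNC and 133 in oeLNC (-0.65), against 73.0 in kdNC and 68.04 in kdLNC with a further probe set at -0.083, and it was at 0.11 against both controls.

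Cells other than MDSCs that such cultures can hold were followed by their markers. Eosinophil genes (8 above the filter) had a median of 0.17, with summed intensities of 1491 in oeNC and 1476 in oeLNC, against 3318 in kdNC and 1724 in kdLNC. Mast cell and basophil genes (12) had a median of 0.13 and sums of 5061, 4514, 4618 and 4744 in the same order. The 12 genes of megakaryocytes and platelets had a median of 0.11, and stromal and endothelial genes (14) one of -0.0047. Against the mean of both controls the medians were -0.57 for eosinophil and -0.23 for mast cell and basophil genes, on the other side of 0. No list of another cell type had a median difference between oeLNC and oeNC past 1.5-fold. Intensities on these arrays do not reach 0, so a marker at the floor cannot be separated from background. Their part in the results was not tested.

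In energy metabolism the 71 oxidative phosphorylation genes had a median of -0.0066, and the 36 cholesterol synthesis genes one of -0.012. Of 23 genes of the TCA cycle list 15 were lower (65.2%, against 51.9% of all genes), with a median of -0.18. In oeLNC 12 were lowest of 4 (52.2%, against 25.5% of all genes). Of 40 glycolysis and hypoxia genes, 24 were higher (60%, against 47.8% of all), with a median of 0.075 and 21 at their highest of 4 in oeLNC, as were 23.7% of all genes. Egln3, a prolyl hydroxylase that marks HIF for destruction and is itself a HIF target, read 799 in oeNC and 1619.7 in oeLNC (1.02), with 848 in kdNC and 276 in kdLNC, and its further probe set differed by 1.20. Pfkfb3, which drives glycolysis, was lower by contrast (-0.84), as was Ddit4, an inhibitor of mTORC1 (-0.95). Within the ATF4 response, Trib3 differed by -0.76 and Chac1, which breaks down glutathione, by 0.87. The ATF4 list of 34 genes had a median of -0.13, and the NRF2 list of 30 one of 0.024.

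Surface receptors and their signals held few genes past 1.5-fold. Of 21 Toll-like receptor and adaptor genes 15 were higher (71.4%, against 47.8% of all genes), with a median of 0.18. Cd180, an inhibitor of Toll-like receptor 4 signals, read 57.8 in oeNC and 122 in oeLNC (1.08), beside 163.1 in kdNC and 130.01 in kdLNC, and Tlr13, a sensor of bacterial ribosomal RNA, differed by 0.59, and by -0.067 from the mean of both controls. The 23 Fc receptor and adaptor genes (median 0.07) and the 7 NADPH oxidase genes (median 0.062) had none past 1.5-fold. Of 31 integrin and surface marker genes, 2 were at least 1.5-fold lower (6.45%, near the 5.38% of all genes). These were Itga1, a collagen receptor subunit, at 64.6 in oeNC and 32.2 in oeLNC (-1.01, but 0.00066 against both controls) and Spn (CD43) at -0.61. Complement was split, with C2 at 0.73 and C6 at 0.83 against C1qb at -0.71. Among purinergic receptors P2ry6, the receptor for UDP, read 354 in oeNC and 167 in oeLNC (-1.08), against 106 in kdNC and 265 in kdLNC, and P2ry10 differed by -0.89. In the eicosanoid pathway 14 of 21 genes were higher (66.7%, against 47.8% of all), among them Ltc4s, the leukotriene C4 synthase (0.60), while Ptgs2 was the one past 1.5-fold on the lower side. The feedback genes of GM-CSF and IL-6 signals had a median of 0.0054 over 29 genes, with Cish, an inhibitor of STAT5 signals, at -0.57 and Ccnd2, a D-type cyclin, at 0.68.

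Genes that handle RNA, protein and chromatin leaned to the lower side by small amounts. Of 46 spliceosome and RNA-binding genes 32 were lower (69.6%, against 51.9% of all genes), with a median of -0.10. At least 1.5-fold lower were 4 of them (8.70%, against 5.38% of all). Snrpa1, of the U2 particle, read 348 in oeNC and 179 in oeLNC (-0.96), with 311 in kdNC and 427 in kdLNC, and its further probe sets differed by -0.87 to -0.50. The splicing factors Srsf3 and Tra2a differed by -0.70 and -0.70, and Srsf5 by 0.65, but by -0.003 from the mean of both controls. Of 36 ubiquitin conjugation genes 3 were at least 1.5-fold lower (8.33%, near the 5.38% of all genes) and 0 higher (3.93% of all). Skp2, the F-box protein that removes the cell cycle inhibitor p27, differed by -0.91, and by 0.28 with shared probe sets left out. Ube2e1 differed by -0.98 with a further probe set at 0.70, so its probe sets disagree. Autophagy genes had a median of -0.11 over 28 genes, with Becn1 (beclin) at -0.97 and further probe sets of it between -0.40 and 0.26. The 40 lysosome and proton pump genes had none past 1.5-fold. Of 34 histone and DNA modification genes 24 were lower (70.6%, against 51.9% of all genes), led by Uhrf1, and the histone deacetylase Hdac9 differed by -0.65. The linker histone gene H1f4 read 24.1 in oeNC and 11.5 in oeLNC (-1.07), beside 13.6 in kdNC and 11.8 in kdLNC, the only one of 9 histone genes past 1.5-fold. Of 31 apoptosis and survival genes 1 was at least 1.5-fold higher (3.23%, near the 3.93% of all genes) and 1 lower (3.23%, against 5.38% of all). The higher one was the survival gene Bcl2 (0.63, but -0.25 against both controls) and the lower one Birc5.

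Of 16 genes of metalloproteinases and their inhibitors, 3 were lower by at least 1.5-fold (18.8%, against 5.38% of all genes), Mmp12 at -0.88, Mmp10 at -0.77 and Mmp13 at -0.77. Of 27 circadian and glucocorticoid genes, 6 were at least 1.5-fold lower (22.2%, against 5.38% of all genes) and 1 higher (3.70%, near the 3.93% of all). Tsc22d3 (GILZ) was at -0.91 and Per1 at -0.70, or 0.34 against both controls. The 25 p53 targets had a median of -0.12 with 20 lower (80%, against 51.9% of all genes). Of long noncoding RNAs, U90926, which myeloid cells induce on stimulation, read 382 in oeNC and 231 in oeLNC (-0.73), against 62.1 in kdNC and 361 in kdLNC, and it was at 0.58 against both controls. Tug1 differed by 0.85.

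Genes of other kinds were among the largest single differences. Slc13a3, a transporter of dicarboxylates, was 3.53-fold lower at 167 in oeNC and 47.2 in oeLNC (-1.82), with 41.02 in kdNC and 103 in kdLNC, and its further probe set differed by -1.60. Zfand1, a stress granule factor, read 26.5 in oeNC and 7.98 in oeLNC (-1.73), beside 13.8 in kdNC and 16.4 in kdLNC. Zfp367, a zinc finger gene, read 127 in oeNC and 43.1 in oeLNC (-1.56), against 72.9 in kdNC and 88.8 in kdLNC. The ubiquitin ligase gene Rnf180 read 87.2 in oeNC and 27.7 in oeLNC (-1.65), with 22.9 in kdNC and 25.7 in kdLNC. Rgcc, a regulator of the cell cycle that complement induces, read 1457 in oeNC and 509 in oeLNC (-1.52), beside 193 in kdNC and 290.0 in kdLNC. Smad1, which carries BMP signals and switches on Id genes, read 474 in oeNC and 176 in oeLNC (-1.42), against 120.5 in kdNC and 154.98 in kdLNC. In Rgcc, Smad1, Rnf180 and Id3 alike, oeNC was at least 3 times above kdNC and oeLNC lay near the knockdown arrays or between them and oeNC. On the higher side, Clic5, an intracellular chloride channel protein, read 13.5 in oeNC and 51.2 in oeLNC (1.92), with 94.8 in kdNC and 154 in kdLNC, and its further probe set differed by 2.65. Here too oeNC was the array apart. Cpe, carboxypeptidase E, read 10.7 in oeNC and 27.7 in oeLNC (1.38), beside 14.5 in kdNC and 19.6 in kdLNC, with oeLNC the highest of 4.

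**Figure D5:**
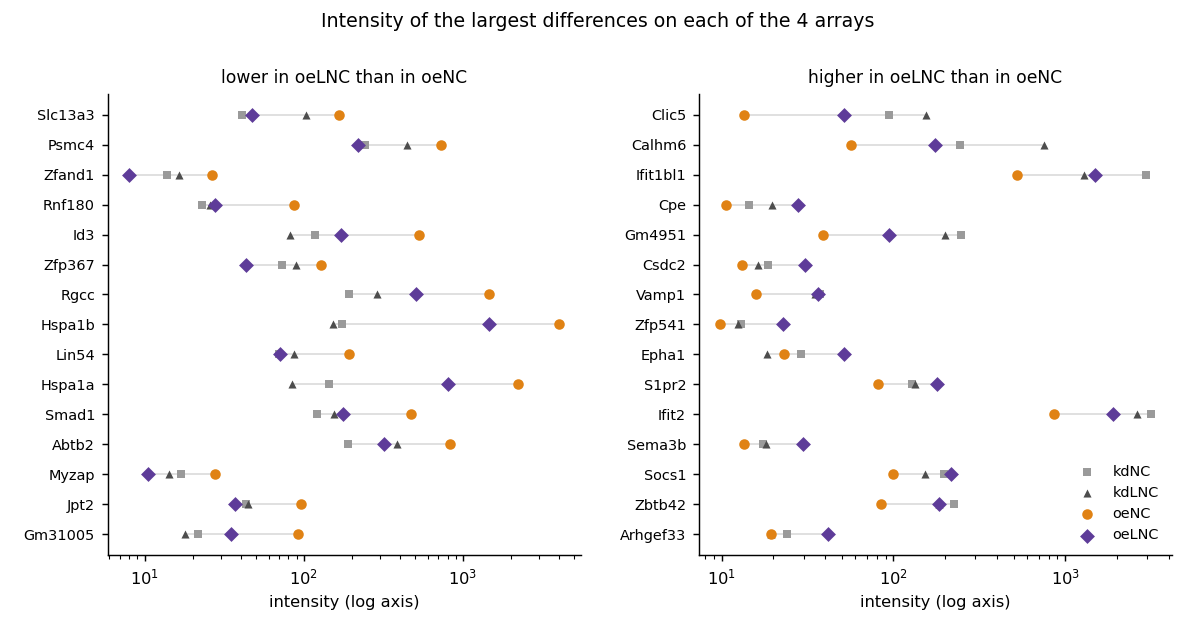
Intensity (horizontal log axis) on kdNC (grey square), kdLNC (dark triangle), oeNC (orange circle) and oeLNC (purple diamond) of the 15 genes with the largest differences on the lower side (left) and on the higher side (right), 1 row a gene. On the left oeNC is the highest array in most rows, as for Rgcc (1457 in oeNC and 509 in oeLNC). On the right the array apart differs by gene, and it is oeNC for Clic5 (13.5 in oeNC and 51.2 in oeLNC) and oeLNC for Epha1 (23.0 in oeNC and 51.3 in oeLNC).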

How the data were processed

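RNA of lentivirus-infected marrow cultures was hybridised to Affymetrix mouse genome arrays, 1 for each of 4 groups. The deposited values are linear intensities that the authors made with RMA (per the labels' processing notes, version not given). They ran from 1.33 to 12309, and the array medians lay between 4.17 and 4.24 after log2 was taken here. Probe sets were named from the platform annotation (34958 with 1 symbol, 932 with several, 9211 with none). A gene took the value of its brightest probe set by mean log2 level, and entered where that probe set was above the 50th percentile on oeNC or oeLNC. With 1 array a group, limma, named in the methods, could not be fitted, and fold thresholds of 2, 1.5 and 3 were used. The 4 arrays limit the precision. Named genes were the 15 largest differences a direction, genes past 2-fold at all of at least 2 probe sets, up to 6 genes a list and those the study names. Other list members and all families were chosen after their values were seen, and the 61 lists and the members with earlier results of these data known. The steps ran in Python 3.11.15 with pandas 2.3.3 and numpy 2.4.6 and were checked on simulated data. Alternatives were other scalings, filters, offsets, probe set rules and control arrays.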

Additional observations from a re-analysis of the deposited data

Results flagged for a closer look

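Of 3004 probe sets above the filter that carry no gene symbol and so entered no comparison, 12 were at least 2-fold higher in oeLNC than in oeNC and 37 at least 2-fold lower. A single one was at least 2-fold above every other array, at 28.7 in oeLNC and 14.02 in oeNC, against 14.02 in kdNC and 13.5 in kdLNC. It was singled out after its values were seen.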

How the results depend on the processing

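No paired analysis was possible because a single array stands for each group, and for the same reason none could be left out. The 35 genes at least 2-fold higher became 20 with median centring, 62 with no filter, 20 with a filter at the 70th percentile, 10 on the log2 of intensity plus 16, 6 against the mean of both control arrays, 467 at 1.5-fold and 2 at 3-fold. The 96 lower became 30 on the log2 of intensity plus 16, 31 against both controls, 639 at 1.5-fold and 5 at 3-fold. The mean of both controls shared 2 of the 35 and 11 of the 96. Of 171 values of the main lists' medians under alternatives, 151 moved by less than a yardstick set for each list. It is the SD of oeNC minus kdNC at like levels, divided by the square root of the number of genes. It takes genes as independent and is not a replicate error. Over the main lists it ran from 0.064 to 0.17 log2 units, below the SD of 0.53 between the control arrays. Against both controls, 20 of 61 list medians and 73 of 365 named genes were on the other side of 0, 33 of the latter being past 1.5-fold. Of medians past this yardstick, these were monocyte and macrophage (0.015), heat shock (0.019), cytokine and NF-kB (0.00054), T and NK (-0.053), chemoattractant receptor (-0.025), autophagy (0.069) and study-named genes (0.038). Of genes past 2-fold, they were Hspa1b (0.80), Hspa1a (0.52), Gm4951 (-0.067) and Itga1 (0.00066). Medians there moved to 0.10 for MDSC effectors, -0.033 for the proteasome, 0.064 for interferon, -0.56 for cell cycle, -0.51 for replication, 0.23 for glycolysis and hypoxia, -0.076 for oxidative phosphorylation, -0.35 for cholesterol and -0.025 for immediate early genes. Median centring gave -0.49 for cell cycle, -0.37 for replication and -0.076 for oxidative phosphorylation, and moved the median of all genes from -0.014 to -0.083. Quantile normalization gave -0.22 for replication and -0.017 for ribosomal proteins, the offset of 16 gave -0.33 for cell cycle, leaving out shared probe sets gave 0.40 for interferon, and averaging probe sets gave 0.12 for chemokines. The causes were not tested. The other alternatives turned at most 12 list medians each, and over all of them only 1 median of at least 0.1 in size, and no named gene past 1.5-fold except Vegfa (0.018), Meg3 (-0.042) and Skp2 (0.28) with shared probe sets left out. Cell cycle and replication medians were below 0 under every alternative run.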
